A study of Chlamydomonas reinhardtii with 18 samples.

Results

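The comparison was that of cells of the green alga *Chlamydomonas reinhardtii* 15 min after nitrite was given with cells sampled at the same time and given none. Its members were the 6 libraries that the labels place at 15 min, 3 per arm, among 18 libraries in all. Both arms were strain 6145c, were kept in the dark at 25 °C and differed only in the addition of nitrite to 10 mM. The labels name no mutation, transgene or second agent in either arm, and no growth medium, nitrogen source or cell density is given in the sources used here. Each library of an arm came from a growth flask of its own, so the 3 libraries of a group are separate cultures. The study used 3 flasks per arm and sampled them at 15 min, 3 h and 24 h, so libraries of different times share flasks. Polyadenylated RNA was sequenced from whole cell pellets, in which fewer cells carrying a transcript and less of it per cell cannot be told apart.

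In plants and green algae nitrite is reduced to ammonium in the chloroplast by a ferredoxin-dependent nitrite reductase, and the ammonium enters glutamine and glutamate. Nitrite can also be reduced to nitric oxide, a reactive signalling molecule that binds haem and other metal centres. In *C. reinhardtii* nitric oxide can be reduced further to nitrous oxide, in the dark through a cytochrome P450 enzyme of the nitric oxide reductase type. A truncated haemoglobin that works with nitrate reductase also handles nitric oxide in this alga. The study's title names the formation of nitrous oxide as its subject.

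The 6 libraries held 6890064 to 8469882 reads in genes. Of 17766 listed features, 13564 had enough reads to be tested and 4202 had too few. Levels are given as CPM, read counts brought to a common library size with TMM factors, which ran from 1.01 to 1.44 at 15 min and from 0.604 to 1.44 over all 18 libraries. The 10 most abundant genes took 16.1% of the gene reads in control number 1 and 22.9% in nitrite number 2, the ends of the range at 15 min. Counts of libraries of a group differed by 4.02 to 35.3 times the variance that counting alone gives, so no pair was the same library deposited again.

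3 of the 18 libraries stood apart from the libraries that share their label, and 1 of them belongs to the comparison. The Euclidean distance between libraries, over the log2 CPM of all tested features, was 48.5 to 73.3 for the 12 pairs of a group that hold none of the 3, and 79.5 to 100.3 for the 6 pairs that hold 1. The library labelled nitrite 15 min number 2 lay 89.2 and 81.0 from the other 2 nitrite libraries of 15 min, but 41.9 and 46.6 from nitrite 3 h numbers 1 and 3. The library labelled nitrite 3 h number 2 lay 82.8 and 85.1 from the other nitrite libraries of 3 h, but 49.2 and 42.6 from nitrite 15 min numbers 1 and 3. Each of these 2 libraries was thus nearer to the libraries of the other time than to those of its own label. The third, control 3 h number 3, had the lowest TMM factor of all, 0.604. The cause of these distances was not tested, every library was kept under its label, and results are given with all 18 libraries and without these 3.

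**Figure D1:**
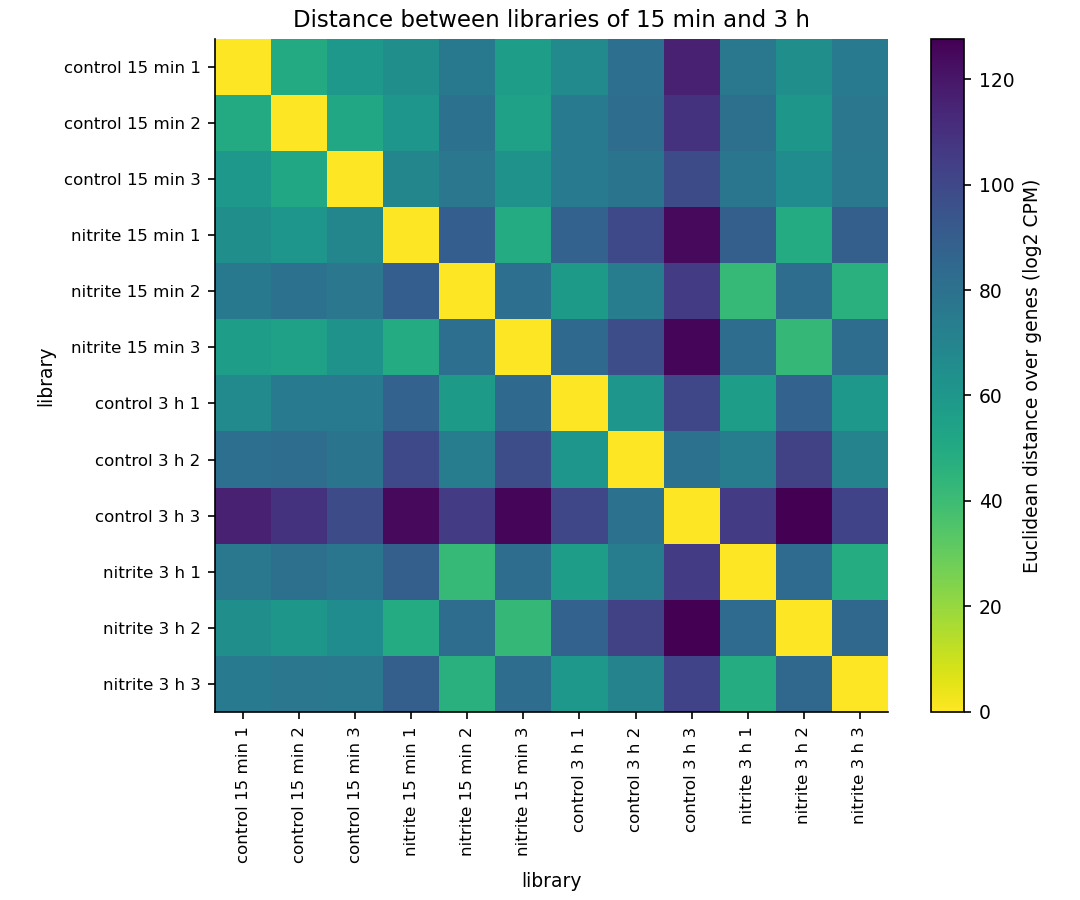
Euclidean distance between the 12 libraries of 15 min and 3 h over the log2 CPM of tested genes, with a colour for each pair of libraries. Nitrite 15 min number 2 is close to nitrite 3 h numbers 1 and 3 (41.9 and 46.6), nitrite 3 h number 2 is close to nitrite 15 min numbers 1 and 3 (49.2 and 42.6), and control 3 h number 3 is far from most libraries.

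With all 18 libraries in the model, 4 genes were higher after 15 min of nitrite and 0 were lower. These 4 are 0.0295% of the genes tested, by edgeR's quasi-likelihood test at a Benjamini-Hochberg adjusted p under 0.05. At an unadjusted p under 0.05 the same test gave 663 genes higher (4.89%) and 438 lower (3.23%), together 8.12% of all tested. DESeq2 called 25 genes higher and 3 lower (0.206%), and limma-voom called 4 higher and 2 lower (0.0442%). All 3 nitrite libraries lay above all 3 controls in 946 genes (6.97%) and below them in 1018 (7.51%). The fitted log2 fold changes of all genes had a median of 0.02 and an SD of 0.37, against an SD of 0.52 at 3 h and 0.88 at 24 h. Without the 3 libraries the SD was 0.43 at 15 min, 0.48 at 3 h and 0.89 at 24 h. A fitted change of at least 2-fold was seen in 160 genes upward (1.18%) and 62 downward (0.457%). At 3 h the same model called 370 genes (2.73%), 265 higher (1.95%) and 105 lower (0.774%). At 24 h it called 3985 genes (29.4%), 2094 higher (15.4%) and 1891 lower (13.9%). The order of the counts at 15 min and 3 h turned when the 3 libraries were left out: 305 genes passed at 15 min and 232 at 3 h (1.69%), 132 higher and 100 lower (0.729%). Fewer libraries then remained at 3 h than at 15 min, so the order of these counts does not compare the size of the responses.

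**Figure D2:**
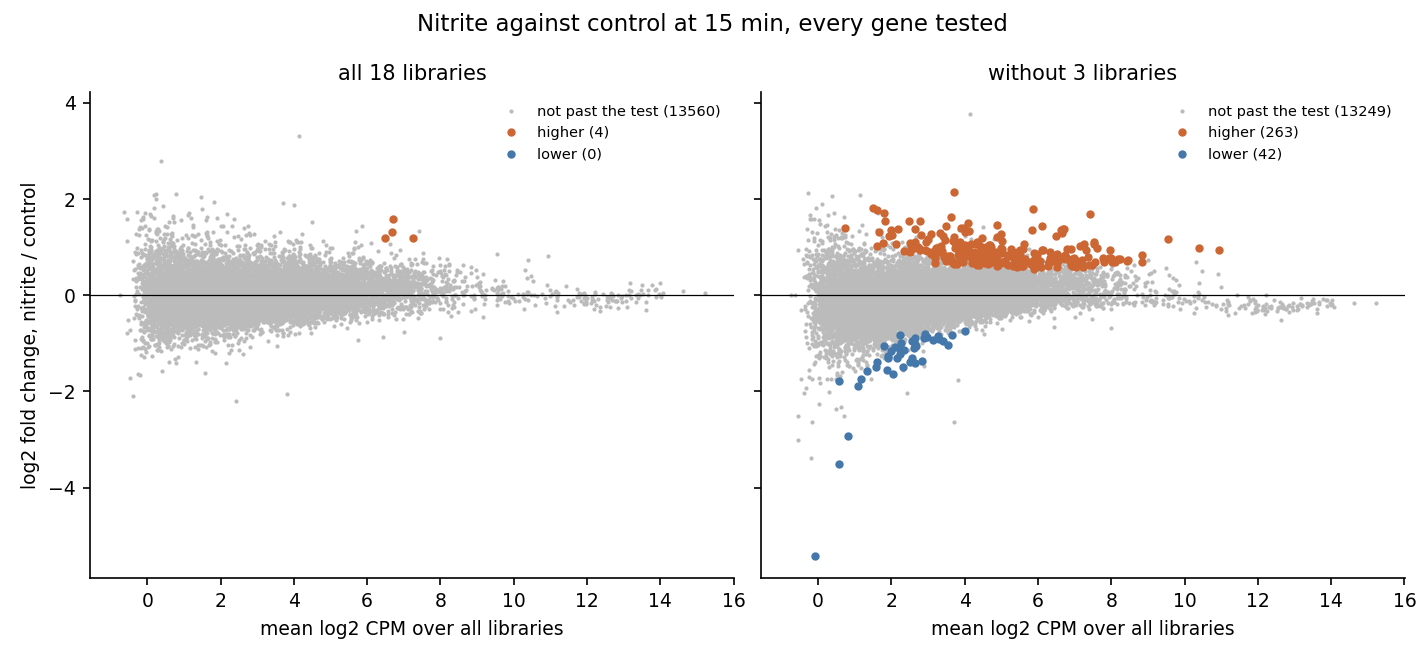
Log2 fold change of nitrite over control at 15 min against mean log2 CPM for every gene tested, with 1 point per gene, coloured where the edgeR adjusted p was under 0.05. With all 18 libraries 4 genes are coloured, all higher; without the 3 libraries that stand apart 263 are higher and 42 lower.

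The 4 genes that rose were Cre03.g155350, Cre12.g517700, Cre04.g215600 and Cre01.g053150. They are named by their identifiers, because neither the deposited tables nor the RefSeq gene table used here pairs them with a name or a product. All are nuclear, on chromosomes 3, 12, 4 and 1.

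Cre03.g155350 measured 11.3, 14.9 and 13.1 CPM in control libraries 1 to 3 and 35.7, 47.8 and 33.5 CPM in the nitrite libraries. The lowest nitrite library was more than double the highest control, and nitrite number 2 was the highest of the 6. The rise was 2.99-fold, a log2 fold change of 1.58 (edgeR adjusted p = 0.000512, SE 0.19), and 1.38 without the 3 libraries (adjusted p = 0.000105).

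Cre12.g517700 measured 31.7, 35.6 and 32.5 CPM in the controls and 69.2, 86.1 and 71.5 CPM with nitrite. The groups did not overlap, and the controls lay within a few CPM of each other. Its log2 fold change was 1.19 (2.27-fold, edgeR adjusted p = 0.00228, SE 0.16), and 1.06 without the 3 libraries (adjusted p = 0.000376).

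Cre04.g215600 measured 22.9, 29.5 and 34.6 CPM in the controls and 90.1, 65.0 and 61.6 CPM with nitrite. Nitrite number 1 stood above the other 2, and all 3 were above every control. Its log2 fold change was 1.32 (2.50-fold, edgeR adjusted p = 0.0119, SE 0.21), and 1.37 without the 3 libraries (adjusted p = 0.000151). The call was lost when control 1, control 2 or nitrite 1 was left out, with an adjusted p of up to 0.199.

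Cre01.g053150 measured 57.1, 47.3 and 46.7 CPM in the controls and 129.5, 105.1 and 109.9 CPM with nitrite. The nitrite libraries lay close together and well above the controls. Its log2 fold change was 1.19 (2.28-fold, edgeR adjusted p = 0.0352, SE 0.21), and 1.22 without the 3 libraries (adjusted p = 0.000727). Leaving out any of 5 of the 6 libraries ended this call, with an adjusted p of up to 0.297; only without nitrite number 2 did it hold. All 4 genes missed the threshold when library totals alone were used for scaling, and when the 6 libraries of 15 min were fitted on their own. With only the 12 libraries of 15 min and 3 h in the fit, Cre04.g215600 and Cre01.g053150 missed it too (edgeR adjusted p = 0.0902 and 0.0781).

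**Figure D3:**
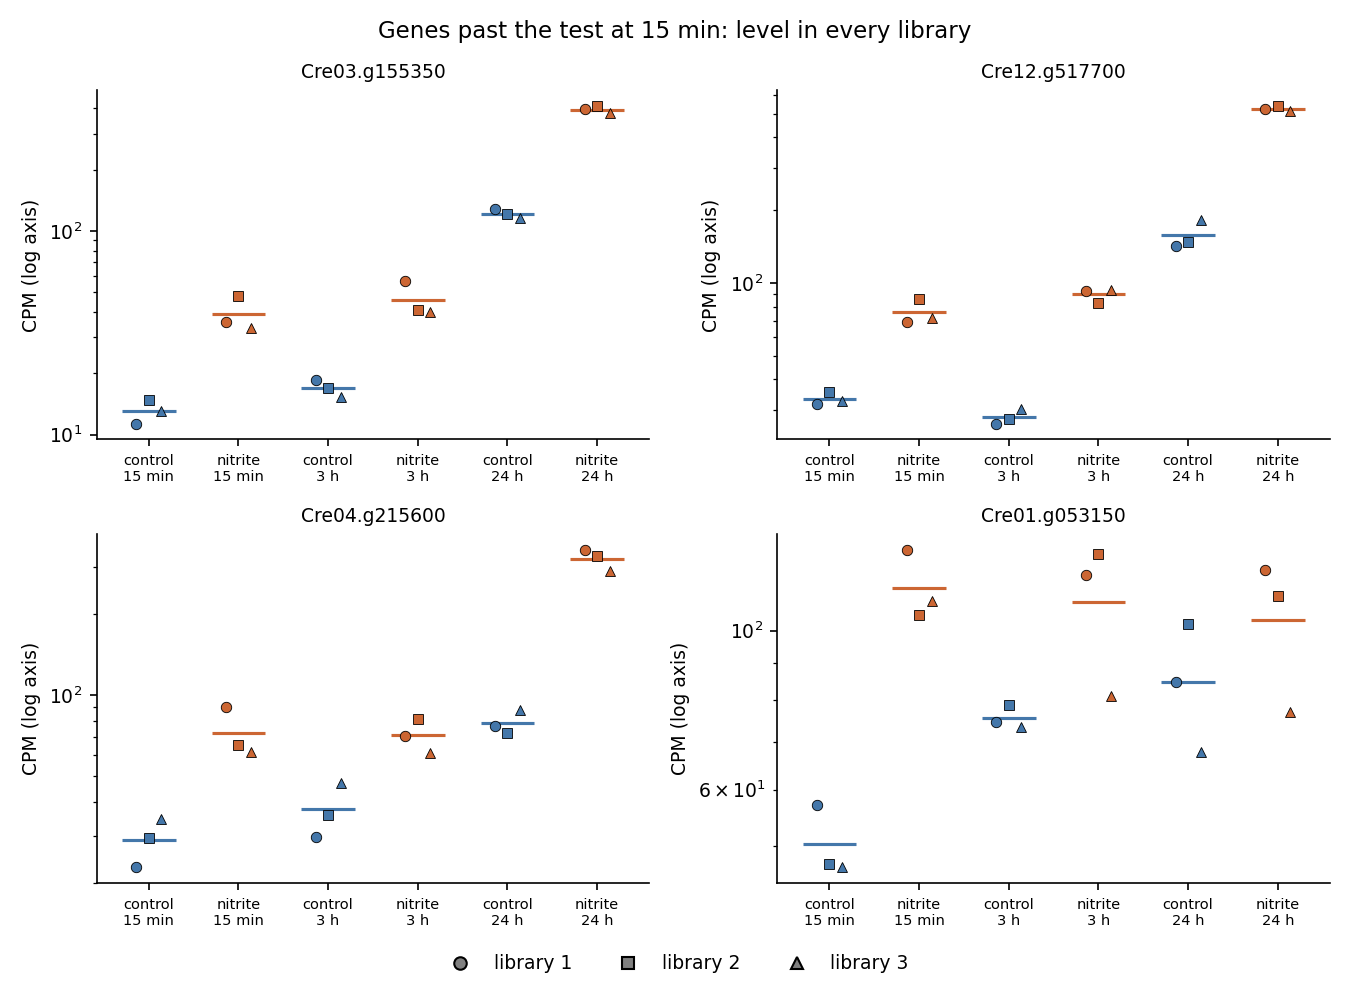
Levels of the 4 genes that rose at 15 min in all 18 libraries, in CPM on a log axis, with a symbol for each library (circle, square and triangle for numbers 1, 2 and 3) and a line at the mean of each group of 3. At 15 min every nitrite library lies above every control library, and Cre01.g053150 alone is no higher with nitrite at 24 h (mean 103.4 CPM) than with nitrite at 15 min (mean 114.8 CPM).

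The same flasks were followed to 3 h and 24 h. Cre03.g155350 had 121.2 ± 6.21 CPM in the controls and 393.7 ± 15.8 CPM with nitrite at 24 h (SD, n = 3), both above its levels at 15 min. Its nitrite effect was 1.43 at 3 h and 1.70 at 24 h on the log2 scale, both past the edgeR test (adjusted p = 0.000815 and 9.91e-07). Cre12.g517700 had 157.4 ± 21.8 CPM in the controls and 524.9 ± 12.7 CPM with nitrite at 24 h, and its effect was 1.69 at 3 h and 1.74 at 24 h (edgeR adjusted p = 1.7e-05 and 2.15e-07).

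Cre04.g215600 had 71.1 ± 10.4 CPM with nitrite at 3 h, almost its level at 15 min, and 321.9 ± 29.8 CPM at 24 h against 79.0 ± 8.14 CPM in the controls (SD, n = 3). Its effects were 0.93 at 3 h and 2.03 at 24 h (edgeR adjusted p = 0.0255 and 7.56e-07). The nitrite libraries of Cre01.g053150 measured 119.7, 127.9 and 81.0 CPM at 3 h and 121.6, 111.6 and 77.0 CPM at 24 h. Numbers 1 and 2 were within the range of 15 min, and number 3 was below it at both times. Its controls were higher at the later times, at 75.6 ± 2.83 CPM at 3 h and 84.9 ± 17.2 CPM at 24 h (SD, n = 3). The effect was 0.54 at 3 h and 0.28 at 24 h, and neither passed the edgeR test (adjusted p = 0.131 and 0.321).

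Whether the effect itself differed between times was tested as an interaction. None of the 4 genes passed for 3 h against 15 min or for 24 h against 15 min, where 0 genes and 936 genes (6.9%) of all tested passed by edgeR. The nearest was Cre01.g053150, whose effect at 24 h minus that at 15 min was -0.90 (edgeR adjusted p = 0.0625). Without the 3 libraries this difference was -0.92 (adjusted p = 0.0203), and Cre12.g517700 also passed, in the other direction, with 0.70 (adjusted p = 0.0282). With each flask as a block, which takes the difference within flasks, Cre01.g053150 passed too (-0.92, edgeR adjusted p = 0.0481). Since the 4 genes were picked for their rise at 15 min, a lesser effect at a later time is partly favoured by that choice.

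The direct neighbours of the 4 genes in the RefSeq table were looked at as context, and no annotated span among them overlapped. None of the 8 neighbours passed the test. Cre04.g215550, beside Cre04.g215600, had a log2 fold change of 0.67 (edgeR adjusted p = 0.231), and 0.68 without the 3 libraries, which passed (adjusted p = 0.0324). Cre12.g517681, beside Cre12.g517700, had a value of 1.11 (adjusted p = 0.454, SE 0.37) on 211 reads in all 6 libraries. Its nitrite number 2, at 8.52 CPM, was above numbers 1 and 3, at 3.35 and 3.88 CPM, and without the 3 libraries its value was 0.57 (adjusted p = 0.268). The other 6 ranged from -0.16 for Cre01.g053200 to 0.34 for Cre12.g517750.

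8 further genes had an edgeR adjusted p between 0.05 and 0.1, and 6 of them had lower values with nitrite. With the 3 libraries left out, 7 of the 8 passed the edgeR test in the same direction, against 2.22% of all tested genes. Their adjusted p ran from 6.77e-05 for Cre03.g211297 to 0.0163 for Cre08.g362700, and Cre05.g238450 did not pass (0.0659). That fit reuses libraries of 15 min by which the 8 were picked, so these passes are not separate support. Cre07.g321900 measured 6.08, 5.73 and 5.16 CPM in the controls and 2.91, 1.36 and 1.26 CPM with nitrite, a log2 fold change of -1.63 (adjusted p = 0.0581, SE 0.30). It is 1 of the 2 genes that limma-voom called lower, the other being Cre08.g362700 (edgeR -1.22, adjusted p = 0.0991); both are named here after their values were seen. Cre07.g321850, which lies beside Cre07.g321900 on chromosome 7, measured 8.08, 6.90 and 8.89 CPM in the controls and 3.80, 3.52 and 3.10 CPM with nitrite, a value of -1.19 (adjusted p = 0.0984, SE 0.25). In both neighbours every nitrite library lay below every control.

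Cre09.g398067 was tight within both groups, with 9.16, 9.82 and 8.75 CPM in the controls and 4.47, 4.09 and 4.66 CPM with nitrite, a log2 fold change of -1.07 (edgeR adjusted p = 0.0598, SE 0.20). By 24 h its levels were 18.5 ± 0.635 CPM in the controls and 27.6 ± 6.17 CPM with nitrite (SD, n = 3), the opposite order. Cre12.g513600 had 10.9, 10.5 and 5.59 CPM in the controls and 3.91, 2.73 and 3.59 CPM with nitrite, a log2 fold change of -1.41 (adjusted p = 0.0863, SE 0.28). Upward, Cre08.g377800 had 1.83, 1.05 and 1.86 CPM in the controls and 3.80, 4.20 and 4.66 CPM with nitrite, a log2 fold change of 1.40 (adjusted p = 0.0598, SE 0.26). The last 2 of the 8, Cre03.g211297 and Cre05.g238450, are among the genes with the largest separated changes.

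Among genes whose nitrite and control libraries did not overlap and whose mean was at least 1 on the log2 CPM scale, the 2 largest fitted changes in each direction were looked at. None of the 4 passed the edgeR test with all 18 libraries. DESeq2 called Cre03.g211297 higher (adjusted p = 0.00195) and Cre05.g238400 lower (adjusted p = 0.0155), and limma-voom called neither (adjusted p = 0.234 and 0.279). For Cre04.g223100 and Cre05.g238450 DESeq2 gave no adjusted p. Cre04.g223100 measured 1.83, 1.17 and 1.15 CPM in the controls and 3.80, 7.95 and 4.75 CPM with nitrite, on 40 and 153 reads, for a log2 fold change of 1.93 (adjusted p = 0.231, SE 0.45). Cre03.g211297 measured 1.67, 2.11 and 1.86 CPM in the controls and 8.39, 4.43 and 8.44 CPM with nitrite, a log2 fold change of 1.92 (adjusted p = 0.089, SE 0.38). In Cre03.g211297 nitrite number 2 was the lowest of the nitrite libraries, while in Cre04.g223100 it was the highest.

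The most negative separated changes were in Cre05.g238450 and Cre05.g238400, which lie beside each other on chromosome 5. Cre05.g238450 measured 5.75, 3.86 and 6.45 CPM in the controls and 1.68, 0.795 and 0.970 CPM with nitrite, a log2 fold change of -2.21 (edgeR adjusted p = 0.0984, SE 0.45). Cre05.g238400 measured 18.6, 13.8 and 13.3 CPM in the controls and 5.37, 1.82 and 3.88 CPM with nitrite, a log2 fold change of -2.05 (adjusted p = 0.326, SE 0.54). Both genes were low in every nitrite library, number 2 included. Both passed the test as lower at 3 h, with log2 fold changes of -3.30 and -2.98 (edgeR adjusted p = 0.00137 and 0.0176), and as higher at 24 h, with 1.26 and 2.54 (adjusted p = 0.0153 and 0.00222). Without the 3 libraries Cre05.g238400 no longer passed at 3 h (edgeR adjusted p = 0.0909), while Cre05.g238450 did (0.00845), and both passed at 24 h. At 24 h the nitrite libraries of Cre05.g238400 were far apart, at 59.0, 17.9 and 7.40 CPM. When only the 12 libraries of 15 min and 3 h were fitted, both passed as lower at 15 min, Cre05.g238450 with an edgeR adjusted p of 0.045 and Cre05.g238400 with 0.0174. That fit called 4 genes in all (0.0301% of those tested), the other two being Cre03.g155350 and Cre12.g517700.

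Without the 3 libraries that stand apart, 263 genes passed as higher (1.92% of 13712 tested) and 42 as lower (0.306%) by edgeR, 305 in all (2.22%). With only nitrite 15 min number 2 left out, 7 of 13757 tested genes passed, all higher. With nitrite 3 h number 2 left out as well, 230 of 13714 passed. The 4 genes above were among the 263. These calls rest on 2 nitrite libraries, numbers 1 and 3, and leaving out nitrite number 1 as well brought the count to 16, while leaving out number 3 gave 213. In these 2 fits the nitrite arm of 15 min is a single library, which is assumed to vary like the other groups, from which the spread then comes. Without control 1, 2 or 3 it was 189, 131 and 170, and with library totals as the only scaling it was 55, of which 52 were higher. With only the 5 remaining libraries of 15 min in the model 436 genes passed, 294 of them among the 305. All 305 genes had nitrite 1 and 3 beyond every control, but the same libraries gave the calls, so this separation is no further support. As a description, 69 of the 263 and 29 of the 42 changed at least 2-fold.

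**Figure D4:**
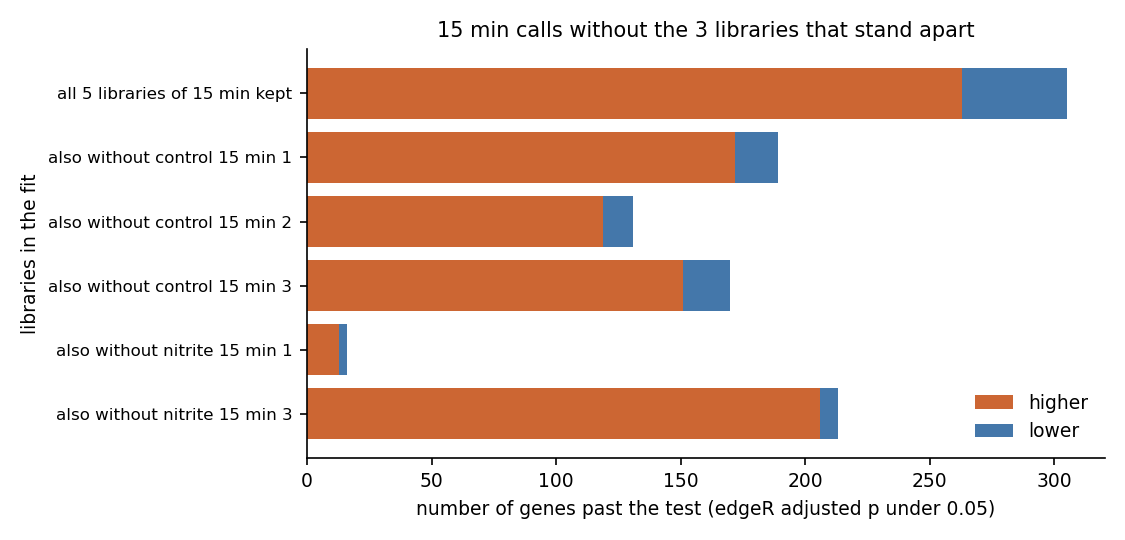
Number of genes past the edgeR test at 15 min without the 3 libraries that stand apart, and after a further library is left out, with bars from 0 split into higher and lower genes. The bar falls from 305 to 16 when nitrite 15 min number 1 is also left out and stays between 131 and 213 for the other 4 libraries; the 2 bars without a further nitrite library rest on 1 nitrite library at 15 min, with the spread taken from other groups.

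The 263 genes were of middling to high level, with a median of 19.6 CPM in the 15 min controls against 7.06 CPM over all tested genes. The 42 were low, with a median of 5.55 CPM. The median log2 fold change at 15 min, which chose the genes and is given only as a description, was 0.85 for the 263 and -1.14 for the 42. Over the 263 genes, the summed level was 10650 to 11670 CPM in the controls, 22330 CPM in nitrite 1 and 19140 CPM in nitrite 3. In the left-out nitrite number 2 it was 11320 CPM, within the range of the controls. Nitrite 1 and 3 and the controls served to choose these genes, and nitrite number 2 did not. Of the 263 genes, nitrite number 2 was above all controls in 96 (36.5%), against 33.6% of all tested genes, and below them in 87. Of the 42, it was below all controls in 17 (40.5%), against 32% of all tested genes. Both shares were near the background. Number 2 was left out because it stood apart from numbers 1 and 3, so these shares are partly set by that choice.

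The library labelled nitrite 3 h number 2 was not in the fit that chose these genes, but it was left out because it stood apart. It lay near nitrite 15 min numbers 1 and 3, which chose the genes, so its counts are not separate support. It was above every 15 min control in all 263 (against 29% of all tested genes) and below them in 41 of the 42 (against 32%). It was above both other nitrite libraries of 3 h in 247 of the 263 and below both in 32 of the 42. The share of all tested genes beyond both was not counted, so these counts are not read as particular to these genes. The median log2 ratio to the 15 min controls over the 263 genes was 0.97 and 0.75 in nitrite 15 min numbers 1 and 3, -0.02 in number 2, 0.86 in nitrite 3 h number 2, and 0.01 and 0.03 in nitrite 3 h numbers 1 and 3. Nitrite 15 min numbers 1 and 3 and the controls used for these ratios also served to choose the genes. The high ratios of numbers 1 and 3 are thus partly set by that choice.

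**Figure D5:**
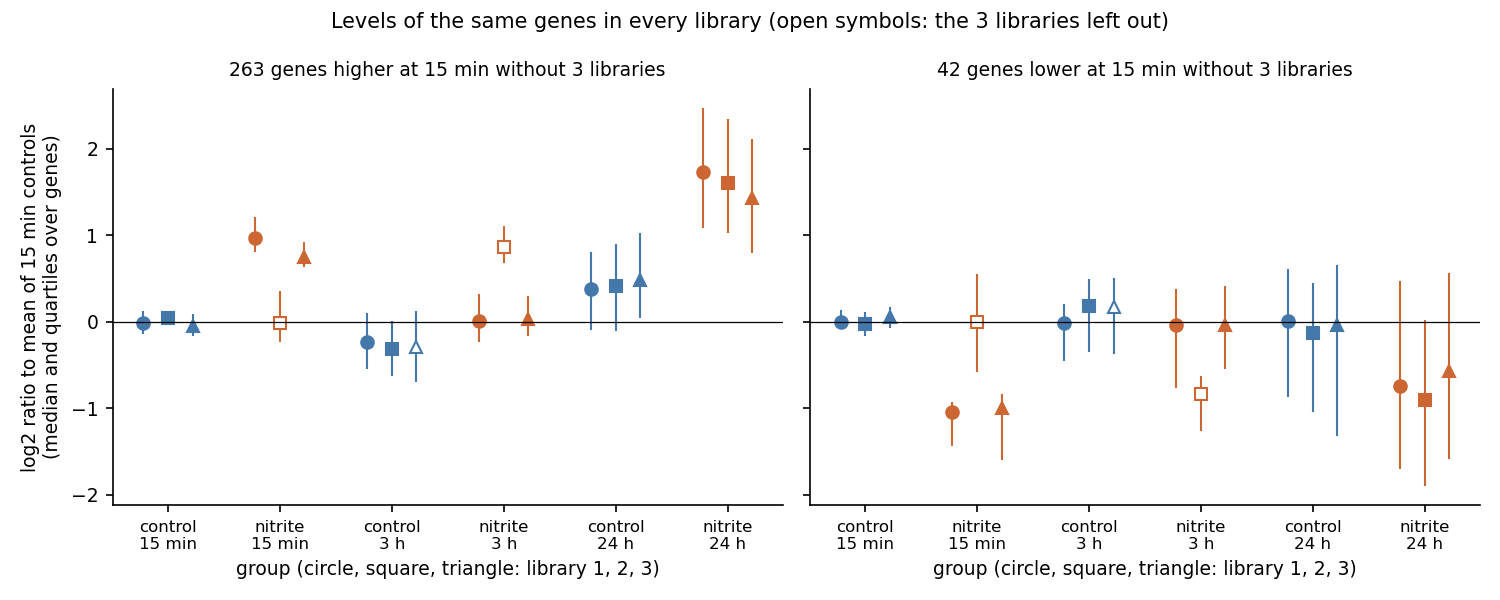
Median log2 ratio to the mean of the 15 min controls, with bars for the quartiles over genes, in each of the 18 libraries for the 263 genes called higher and the 42 called lower at 15 min without the 3 libraries (open symbols). Nitrite 15 min number 2 lies at the level of the controls in both panels, nitrite 3 h number 2 lies with nitrite 15 min numbers 1 and 3, and the 263 genes reach 1.43 to 1.73 with nitrite at 24 h. Nitrite 15 min numbers 1 and 3 and the controls of 15 min served to choose these genes. The libraries with open symbols were left out because they stood apart, so their places are partly set by that choice.

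At 24 h 5211 of all tested genes passed in the same fit (38%). Of the 263 genes, 231 (87.8%) were called higher with nitrite, against 20.5% of all tested genes, and 4 (1.52%) were called lower, against 17.5%. The shares of all tested genes are not matched for level, whose median in the 15 min controls was 19.6 CPM for the 263 and 7.06 CPM for all tested. The 231 are 8.22% of the 2809 genes higher at 24 h. At 3 h, 26 of the 263 passed as higher, against 0.963% of all tested genes, and 1 passed as lower. The median log2 fold change of the 263 was 0.36 at 3 h and 1.20 at 24 h, against -0.01 and -0.04 for all tested genes. Of the 42 lower genes, 11 were lower at 24 h (26.2%, against 17.5% of all tested) and 5 were higher. The median of the 42 was -0.10 at 3 h and -0.44 at 24 h.

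The difference between the 3 h and 15 min effects passed for 12 genes in this fit (0.0875% of all tested), 4 of them among the 263 with a lesser effect at 3 h and 1 among the 42. The difference between the 24 h and 15 min effects passed for 1763 of all tested genes (12.9%). Of the 263, it passed for 49 with a greater effect at 24 h and for 12 with a lesser one. Of the 42 it passed for 11, all toward higher values at 24 h. Since the 263 and the 42 were picked for their values at 15 min, the direction of these differences is partly set by that choice.

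For genes that passed as higher in this fit the same limit of level was used, but separation was asked only of nitrite 1 and 3. Among them the largest rises were Cre03.g211297, with a log2 fold change of 2.15 (edgeR adjusted p = 6.77e-05, SE 0.26), and Cre05.g234653, with 1.81 (adjusted p = 0.0324, SE 0.46). Cre05.g234653 stood on few reads, 13 in the 3 controls and 47 in the 3 nitrite libraries. Cre03.g211297 was also higher with nitrite at 24 h, at 56.0 ± 9.84 CPM against 7.17 ± 1.78 CPM in the controls (SD, n = 3; edgeR adjusted p = 2.36e-12 without the 3 libraries). Genes that passed as lower were also asked for nitrite 1 and 3 below the controls and a mean of at least 1 on the log2 CPM scale. Among them the largest falls were Cre12.g532800, with -1.89 (edgeR adjusted p = 0.0485, SE 0.52), and Cre06.g298200, with -1.74 (adjusted p = 0.0199, SE 0.41). Cre12.g532800 measured 0.447, 2.39 and 0.776 CPM in nitrite 1 to 3 against 2.17, 1.87 and 3.01 CPM in the controls, and the left-out nitrite number 2 lay among the controls. Cre06.g298200 measured 1.45, 2.50 and 0.485 CPM in nitrite 1 to 3 against 3.17, 2.57 and 3.73 CPM in the controls, and number 2 lay just below the lowest of them.

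Some of the genes called in this fit lay beside each other. Of the 263, 27 (10.3%) had a direct neighbour among the 263, against 3.8% of all tested genes, and 2 of the 42 (4.76%) had one among the 42, against 0.619%. These shares are a description and were not tested. By chromosome, the share of tested genes called higher ran from 0.924% on chromosome 6 to 4.14% on chromosome 4.

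10 lists of nuclear loci for pathways tied to nitrite, nitric oxide, dark metabolism and stress were read from the same fit. The loci were entered from general knowledge of the species, and neither the files nor the RefSeq table states their functions, so members are described by list and not by identifier. Of 86 loci entered, 85 were found and 74 tested. None passed the edgeR test with all 18 libraries, against 0.0295% of all genes, and 9 had an unadjusted p under 0.05, against 8.12% of all genes. The median of the 74 was -0.03, against 0.02 for all tested genes.

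The list of nitrate and nitrite transport and reduction, the enzymes and carriers that bring nitrogen to ammonium, had 5 of 9 members with enough reads. Their log2 fold changes ran from -0.29 to 0.87, with a median of 0.03 and a smallest edgeR adjusted p of 0.756. The best covered of them measured 8.33, 6.20 and 5.16 CPM in the controls and 6.71, 6.93 and 6.69 CPM with nitrite, with overlapping groups. The member with the largest change, 0.87, stood on 9 reads in the 3 controls. Its nitrite libraries were at 0.112, 1.70 and 0.097 CPM, so that its value turned to -1.55 without the 3 libraries. No direction was read for these genes. Few reads were the limit for this member and the untested loci. The best covered member had 189 reads in the controls and 190 with nitrite, and a value of 0.03 (SE 0.44).

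The list for nitric oxide, the proteins that turn it over or carry it, had all 3 members tested and the smallest adjusted p of any list. That member measured 95.6, 103.7 and 95.5 CPM in the controls and 200.4, 140.5 and 130.9 CPM with nitrite, and all nitrite libraries lay above the controls. Its log2 fold change was 0.68 (edgeR adjusted p = 0.326, SE 0.19). Without the 3 libraries it was 0.73 and passed (adjusted p = 0.0279, SE 0.18), as it did by DESeq2 with all libraries. The most abundant member, at 557.6, 546.0 and 492.9 CPM in the controls and 569.7, 480.6 and 657.9 CPM with nitrite, had overlapping groups and a value of 0.10 (adjusted p = 0.937). The remaining member was split among the nitrite libraries, at 12.3, 40.8 and 8.15 CPM against 16.7, 17.1 and 18.9 CPM in the controls. Nitrite 2 was high there and nitrite 1 and 3 were low.

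In the list of ammonium uptake and glutamine and glutamate metabolism, 8 of 12 members were tested, with a median log2 fold change of 0.06. The member with the largest change had 368.8, 392.7 and 328.3 CPM in the controls and 912.5, 313.5 and 754.8 CPM with nitrite. Nitrite 1 and 3 were about double the controls, and nitrite 2 was below all of them. Its value was 0.86 with all libraries (edgeR adjusted p = 0.523, SE 0.34) and 1.17 without the 3 libraries (adjusted p = 0.00146, SE 0.20). The other 7 tested members ran from -0.16 to 0.29.

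Of 12 loci for oxidative stress defence, such as peroxidases, catalase and superoxide dismutases, all were tested and 6 had values above 0, with a median of 0.02. The largest value, 0.70, came from a locus at 11.5, 20.8 and 21.2 CPM in the controls and 39.9, 18.9 and 27.5 CPM with nitrite (edgeR adjusted p = 0.516). Nitrite 2 fell among the controls, and without the 3 libraries the gene passed with 0.91 (adjusted p = 0.0374). Another member was higher in every nitrite library, with 42.4, 38.2 and 37.3 CPM against 26.6, 28.5 and 21.2 CPM in the controls, and did not pass in either fit (0.62, adjusted p = 0.379 with all libraries).

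The 16 loci of chaperones and heat shock proteins, which fold and refold other proteins, had a median of -0.04, and 5 had values above 0. The most negative value was -0.92 (edgeR adjusted p = 0.624, SE 0.45), from a locus at 174.1, 140.3 and 98.4 CPM in the controls and 101.5, 24.5 and 91.6 CPM with nitrite. Its nitrite 1 overlapped the lowest control, and nitrite 2 was far below all others. The smallest adjusted p of the list, 0.331, belonged to a locus at 213.9, 161.9 and 132.9 CPM in the controls and 113.8, 58.3 and 105.8 CPM with nitrite, which did not overlap. Its log2 fold change was -0.87 (SE 0.25) and -0.65 without the 3 libraries.

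All 20 light-harvesting loci, which encode the chlorophyll-binding antenna proteins, were tested, and 4 had values above 0. Their median was -0.18 with all libraries, from -0.46 to 1.28, and -0.01 without the 3 libraries. The 2 largest changes were both upward, at 1.28 and 1.17, in loci of few reads. The first measured 0.666, 0.936 and 1.29 CPM in the controls and 1.45, 3.64 and 1.75 CPM with nitrite (edgeR adjusted p = 0.454). The second had 19 reads in the 3 controls and 45 in the 3 nitrite libraries (adjusted p = 0.524). Neither overlapped between groups, and neither passed in either fit. The most abundant member measured 1059, 1067 and 1238 CPM in the controls and 1024, 484.9 and 964.5 CPM with nitrite, and nitrite 2 was far below every other library. All 3 loci of the photoprotection list had too few reads to be tested.

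Fermentation, the set of routes that ends in formate, acetate, ethanol and hydrogen, had 6 of 7 loci found and tested. The median log2 fold change was 0.12, from -0.10 to 0.36, and 0.44 without the 3 libraries, where none passed. The most abundant member measured 880.4, 791.1 and 586.8 CPM in the controls and 1067, 327.7 and 1047 CPM with nitrite. The 2 glyoxylate cycle loci had values of 0.40 and 0.42, and the 2 alternative oxidase loci, whose enzyme passes electrons from ubiquinol to oxygen without pumping protons, had -0.40 and 0.23. None of these passed in either fit.

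Of the 25 organelle genes that the files name, 3 had enough polyadenylated reads to be tested and none passed. The transcript of cob, which encodes cytochrome b of respiratory complex III, measured 22.2, 36.4 and 44.0 CPM in the controls and 30.3, 39.8 and 27.3 CPM with nitrite, a log2 fold change of -0.07 (edgeR adjusted p = 0.986). Transcripts of nad4 and nad5, which encode subunits of complex I, had values of -0.36 (adjusted p = 0.787) and -0.43 (adjusted p = 0.933). The level of nad4 was 153.1, 240.1 and 289.7 CPM in the controls and 173.1, 201.8 and 156.5 CPM with nitrite. That of nad5 was 2.92, 6.67 and 7.74 CPM against 5.81, 3.98 and 2.81 CPM. The groups overlapped in all 3 genes, and control number 1 was the lowest control in each. The other 22 were cox1, nad1, nad2, nad6, rtl, rRNA fragments and tRNAs. Each of them had at most 94 reads over all 18 libraries.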

How the data were processed

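RNA-seq counts were used, 1 table per library. The deposited counts are whole numbers of reads per feature and were not normalised. Per the submitters' processing notes the tools were TopHat2 2.0.13 and HTSeq; options, strand setting and genome build: not given in the sources used here, so overlapping or near-identical genes are uncertain. The summary classes at the end of each table were kept out of totals and tests; at 15 min, reads with several alignments made up 17.7% to 20.7% of a table. Nuclear identifiers were matched by name to RefSeq's gene table of assembly Chlamydomonas_reinhardtii_v5.5 (17738 of 17741), used only for neighbours and chromosomes.

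Features with few reads were removed with filterByExpr by group (minimum count 10). edgeR 4.0.16 in R 4.3.3 fitted all 18 libraries with TMM scaling and a mean per group, leaving 12 residual degrees of freedom. The model had no term for flasks, so libraries of different times that share a flask were counted as independent. The robust quasi-likelihood F test of edgeR gave p-values, adjusted by Benjamini-Hochberg over all 13564 tested features. The SE of a log2 fold change is its size over the square root of F. A gene rose or fell where its adjusted p was under 0.05. The script was tested on simulated data with 200 changed genes. With 18 libraries it recovered 1.49% of 1.5-fold, 32.8% of 2-fold and 87.9% of 4-fold changes, and 7.95% of its calls were false.

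Alternatives were relative log expression factors, library totals alone, no filter, DESeq2 1.42.0, limma-voom (limma 3.58.1), fewer libraries, a replicate block, and leaving libraries out. The replicate number was shared between arms without a stated meaning.

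The genes named are those past the test, the 2 largest changes in each direction without overlap (with all libraries and without 3), the organelle genes, and direct neighbours; those with an adjusted p of 0.05 to 0.1 were added after the data were seen. List members are not printed by identifier, since nothing used here annotates them. The comparison, lists, rules and the 3 libraries left out were chosen with earlier results of these data known.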

Additional observations from a re-analysis of the deposited data

Results flagged for a closer look

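4 of the genes named had an unequal nitrite effect at 15 min and 24 h by edgeR's test of the difference itself with all 18 libraries. Of all tested genes, 936 passed that test of the difference (6.9%). None of the 4 passed the edgeR test at 15 min with all libraries, and all passed it as higher at 24 h. Cre05.g238450, Cre05.g238400 and Cre09.g398067 were named for their values at 15 min, so the direction of their differences is partly set by that choice.

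For Cre05.g238450 the difference was 3.47 on the log2 scale (edgeR adjusted p = 0.0012, SE 0.58), from -2.21 at 15 min to 1.26 at 24 h, and 3.31 without the 3 libraries that stand apart (adjusted p = 0.00421). For its neighbour Cre05.g238400 it was 4.58 (SE 0.77, edgeR adjusted p = 0.00218), from -2.05 to 2.54, and 4.30 without them (adjusted p = 0.0209). The 24 h nitrite libraries of both genes were far apart, at 18.7, 10.1 and 4.57 CPM for Cre05.g238450 and 59.0, 17.9 and 7.40 CPM for Cre05.g238400. For Cre09.g398067 the difference was 1.64 (SE 0.27, edgeR adjusted p = 0.000889), from -1.07 to 0.58, and also 1.64 without them (adjusted p = 0.000279), where it passed as lower at 15 min (adjusted p = 0.0118). For Cre04.g215650, a neighbour of Cre04.g215600, it was 2.33 (SE 0.34, edgeR adjusted p = 0.000316), from 0.17 to 2.50, and 2.47 without them (adjusted p = 0.000106). Its 15 min libraries were at 1.33, 0.936 and 1.43 CPM in the controls and 1.34, 1.59 and 1.26 CPM with nitrite.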

How the results depend on the processing

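With all 18 libraries the count of 4 genes stayed at 4 with relative log expression factors, without a filter and with a replicate block, and was 4 with only the libraries of 15 min and 3 h, with 2 higher and 2 lower. The count was 0 with library totals alone (383 genes at an unadjusted p under 0.05), 0 with only the 6 libraries of 15 min (1061 unadjusted), 28 by DESeq2, 305 without the 3 libraries that stand apart, and 2 to 7 when each library of 15 min was left out in turn. Settings added after the data were seen gave 230 genes without both nitrite libraries of number 2 and 436 with only the libraries of 15 min and without nitrite number 2. The cause of these shifts was not tested. Same-numbered libraries did not deviate together (r = -0.05, -0.17 and -0.10), so no pairing was read from the block; it changed no call of a gene past the test at 15 min. Without the 3 libraries the count of 305 was 55 with library totals alone, 241 with the replicate block, 230 with control 3 h number 3 kept, and 16 to 213 when a further library of 15 min was left out. With that count, relative log expression factors gave 324, no filter 379, DESeq2 363 and limma-voom 291.

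Of 74 list members, 0 passed, 1 by DESeq2 (against 0.206% of all genes), 3 without the 3 libraries (against 2.22%), and 0 to 0 over the libraries left out in turn. Genes past the test at 15 min whose effect differed at a later time numbered 0, 2 without the 3 libraries, 1 with each flask as a replicate block (Cre01.g053150, edgeR adjusted p = 0.0481), and 0 when libraries were left out. The difference between the 3 h and 15 min effects changed sign for Cre03.g155350, from -0.15 to 0.068 without the 3 libraries and 0.18 with library totals alone, and it ran from -0.25 to 0.022 over the libraries left out in turn, positive without nitrite number 2. It was 0.0037 for Cre04.g215600 with library totals alone, against -0.39. The 24 h minus 15 min difference of Cre03.g155350 was -0.26 with library totals alone, against 0.12. None of these differences passed. At this depth 4202 features had too few reads to be tested.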
